A study of Homo sapiens with 9 samples.

Results

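The comparison described here set cells labelled TPH2+ serotonin neurons at Day42 of differentiation against cells labelled neural progenitor cells at Day21. It used every gene of the deposited table in 6 of the 9 libraries of the series, 3 from each day, chosen by the day and cell type in the labels. Both groups came from WA09, an established human embryonic stem cell line, and both carried a TPH2-EGFP knock-in, a reporter placed at the gene for the neuronal tryptophan hydroxylase, and had been taken through induced serotonin neuron differentiation. The labels give no dose, factor or sorting step, and no source used here says how the TPH2+ cells of Day42 were selected. The libraries are numbered as biological replicates, with no word on whether each was differentiated separately. The p-values below thus rest on library-to-library spread that could be technical.

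Serotonin neurons of the hindbrain arise from ventral progenitors and use tryptophan hydroxylase 2 and aromatic amino acid decarboxylase to make serotonin, the vesicular transporter SLC18A2 to pack it, and monoamine oxidases to break it down. Their identity depends on transcription factors that include GATA2, GATA3, LMX1B and FEV, an ETS-family factor. Leaving the cell cycle and building an axon, a release machinery and excitable membranes are general steps of the passage from progenitor to neuron.

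The 6 libraries held 59429495 to 69658328 counts. A count above 0 was seen for 24581 to 24741 genes in the Day21 libraries, but for 16077, 17101 and 10797 in Day42 replicates 1, 2 and 3. Day42 replicate 3 therefore had the highest total and the fewest genes. Log2 CPM correlated across genes at a Pearson r of 0.947 to 0.959 between Day21 libraries, 0.78 between Day42 replicates 1 and 2, and 0.639 between replicate 3 and each of them. The biological coefficient of variation, edgeR's measure of spread between replicates, was 0.363 on Day21, 1.88 on Day42 and 1.31 on Day42 without replicate 3. The tests below were therefore also run without that library.

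On Day42, 1030 (5.81%) of the 17731 tested genes were higher than on Day21 and 2878 (16.2%) were lower. A gene was called by edgeR's quasi-likelihood test, with Benjamini-Hochberg adjustment, where the adjusted p was below 0.05 and the log2 fold change at least 1 in either direction. The libraries of the days did not overlap for 12.7% of tested genes that were higher on Day42 and 35.3% that were lower, and every called gene was among these. Without Day42 replicate 3, 19524 genes were tested, and 2306 (11.8%) were higher and 4786 (24.5%) lower. Of the 1030 higher genes, 1002 were also called without replicate 3, which is 97.3% of the first list and 43.5% of the second. Of the 2878 lower genes, 2842 were also called, 98.7% and 59.4% of the respective lists, and 0 genes changed direction. The Day21 libraries weighed more on the count: 423, 135 and 154 genes were higher and 1332, 173 and 182 lower without Day21 replicate 1, 2 and 3, and 4845 were lower without Day42 replicate 2. Calls given below as lost without a Day21 library are to be read against the low counts of these Day21 fits over all tested genes. Of 170 genes chosen for naming that were called, 0 lost the call without Day42 replicate 3, and the log2 fold changes of the 69 higher ones moved by -1.40 to 0.58. Those of the 26 lower ones with a Day42 mean above the detection limit, defined below, moved by -0.59 to 0.54. Genes named for the largest change were chosen only if called without that library, so for them a kept call was fixed in advance. Scaling by library totals alone, an alternative added after the data were seen, moved the median log2 fold change of all tested genes from -0.43 to 0.10 and the split to 1588 higher and 2583 lower.

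**Figure D1:**
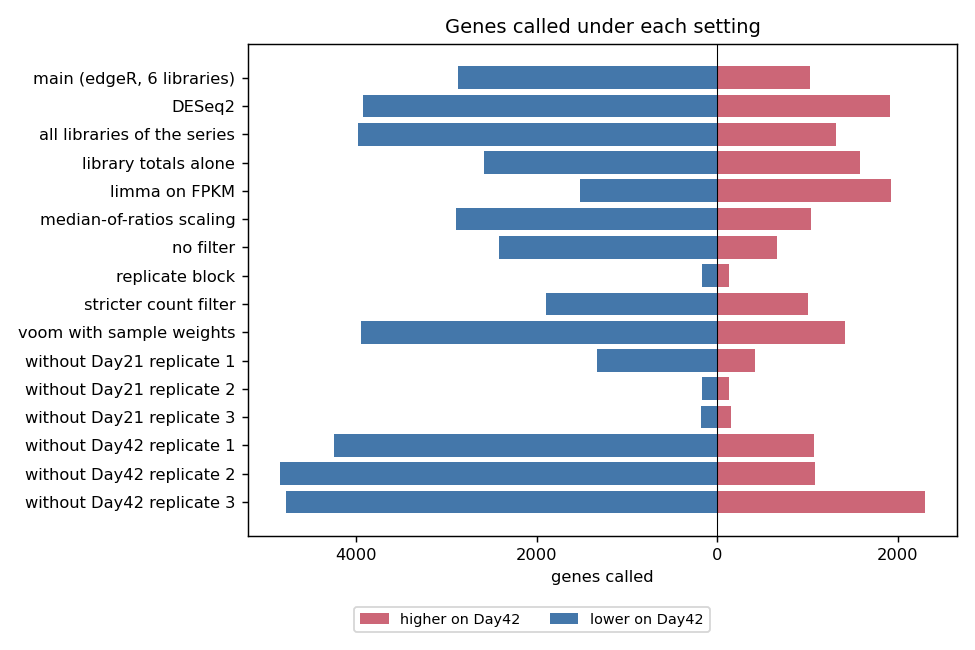
Horizontal bars give the number of genes called higher (right) or lower (left) on Day42 than on Day21 under each analysis setting. The main count of 1030 higher and 2878 lower genes fell to 135 and 173 without Day21 replicate 2 and rose to 2306 and 4786 without Day42 replicate 3.

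The higher and lower calls differed in kind. All 1030 higher genes had a Day42 mean above the detection limit, set at 12 counts per library, and 676 had a mean of at least 10 FPKM on Day42. In contrast, 1849 of the 2878 lower genes (64.2%) had a count of 0 in all 3 Day42 libraries. Only 756 lower genes had a Day42 mean above the limit, and 733 had a Day21 mean of at least 10 FPKM. The share of genes at 0 depended on their Day21 level. Among 9154 genes at 0.1 to 1 FPKM on Day21, 43.3%, 38.4% and 67.8% had a count of 0 in Day42 replicates 1, 2 and 3, whereas among 2190 genes at 10 to 100 FPKM the shares were 3.24%, 2.6% and 12.4%. A count of 0 in genes that were low on Day21 was thus common on Day42, and its part in the lower calls was not tested. For a gene at 0 in all 3 libraries of 1 day, the fold is given as a lower bound against this limit, which covers counting error only. A count of 0 also occurred in a Day42 library where the others were high: SYT4 was at 188, 147 and 0 CPM in Day42 replicates 1, 2 and 3. Folds given below as "at least" are thus bounds for counting error alone.

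**Figure D2:**
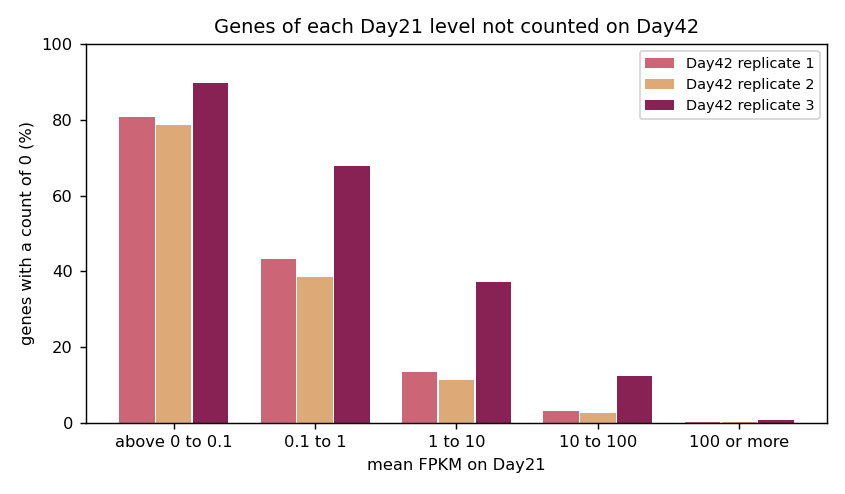
Bars give the percentage of genes with a count of 0 in each Day42 library, for genes grouped by their mean FPKM on Day21. In the group at 1 to 10 FPKM the shares were 13.5% and 11.3% in replicates 1 and 2 and 37.1% in replicate 3.

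The promoters of 3 serotonin genes are shown because these genes were low or under the limit of detection on Day21 and abundant on Day42. Each is the stretch just upstream of the annotated start, from RefSeq on GRCh38.p14, written 5′ to 3′ on the gene's strand. Capitals mark the motif AGATAA of GATA factors or the motif GGAAGT of the ETS family, on either strand. The TPH2 stretch lies at chr12:71938595-71938844 (plus strand), that of FEV at chr2:218985185-218985434 (minus strand) and that of MAOB at chrX:43882451-43882700 (minus strand).
TPH2: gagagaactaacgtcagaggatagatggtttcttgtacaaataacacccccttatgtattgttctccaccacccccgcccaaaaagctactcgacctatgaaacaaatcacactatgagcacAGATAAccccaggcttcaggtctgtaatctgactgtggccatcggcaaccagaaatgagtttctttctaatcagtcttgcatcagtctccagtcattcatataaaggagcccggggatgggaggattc
FEV: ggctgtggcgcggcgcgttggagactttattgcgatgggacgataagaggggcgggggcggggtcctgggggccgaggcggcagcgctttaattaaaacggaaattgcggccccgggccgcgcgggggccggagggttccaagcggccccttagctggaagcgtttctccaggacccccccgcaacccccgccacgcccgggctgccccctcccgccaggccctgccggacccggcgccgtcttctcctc
MAOB: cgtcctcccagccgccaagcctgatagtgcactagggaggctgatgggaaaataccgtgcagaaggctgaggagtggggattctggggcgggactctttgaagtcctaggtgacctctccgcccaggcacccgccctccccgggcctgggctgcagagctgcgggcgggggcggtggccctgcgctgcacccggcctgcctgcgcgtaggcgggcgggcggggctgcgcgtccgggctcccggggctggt
The TPH2 stretch held 1 AGATAA, 128 bases upstream of the start, and the other stretches held neither motif. Over 35116 RefSeq promoters of the same length, 9.17% held AGATAA and 19.5% held GGAAGT. Among promoters of the genes called higher the shares were 6.72% and 16.8%, and among those of all tested genes 5.38% and 21.3%. A match describes the letters and is not shown to be a bound site.

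Gene lists below are described by their calls, to be read against 5.81% higher and 16.2% lower among all tested genes, and 11.8% and 24.5% without Day42 replicate 3. Where edgeR called 0 members in 1 direction, 0 had an unadjusted p under 0.05 in that direction and DESeq2 called 0, except for 1 and 1 higher progenitor gene, 1 and 1 higher Notch gene, 2 and 0 higher nuclear oxidative phosphorylation genes, 1 and 0 lower cholesterol genes, and 1 and 1 lower microglia and blood marker.

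Serotonin identity genes TPH2, FEV and GATA3 rose from low levels on Day21, with TPH2 below the limit of detection. The Day42 cells were labelled TPH2+, and the part of their selection in the TPH2 rise was not tested. TPH2 (ENSG00000139287) stood at 0, 0.0794 and 0.0789 TMM-scaled CPM in the Day21 libraries and at 150, 111 and 106 CPM in the Day42 libraries. The days did not overlap, and Day42 replicate 3 stood close to replicate 2. The fitted difference was 11.17 ± 1.24 (log2 fold change ± SE, n = 3 per day, edgeR adjusted p = 0.00648), and 11.28 without Day42 replicate 3. All 3 Day21 values were below the detection limit, and with Day21 set at that limit the log2 ratio of the means was 9.11. This call was lost without Day21 replicate 2 (edgeR adjusted p = 0.0539) and without replicate 3 (0.0519). Those fits called 135 and 154 genes higher in all, against 1030 with all 6 libraries. FEV (ENSG00000163497) rose from 0.253, 1.19 and 0.946 CPM to 632, 602 and 604 CPM, a log2 fold change of 9.59 ± 0.74 with replicate 3 and 9.59 without it (edgeR adjusted p = 0.00296 and 0.00313). In FPKM, which allows genes to be compared, FEV reached 401 ± 17.5 (SD, n = 3) and TPH2 18.2 ± 3.63.

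GATA3, a zinc-finger factor, stood at 0.489, 0.417 and 0.315 CPM on Day21 and at 134, 90.6 and 310 CPM on Day42, highest in replicate 3. Its log2 fold change was 8.76 ± 0.71 and fell to 8.07 without that library. GATA2 was at 2.42, 1.23 and 21.9 CPM on Day42 and missed the threshold with all 6 libraries (edgeR adjusted p = 0.0564). It passed without Day42 replicate 1, 2 or 3 (edgeR adjusted p = 0.044, 0.0268 and 0.028) but not with any 1 Day21 library left out (0.196 to 0.205). Its Day21 counts of 6, 11 and 10 were below the detection limit, and the log2 ratio with Day21 set at that limit was 5.27. LMX1B, a LIM-homeodomain factor, was at 1.68, 2.31 and 0 CPM on Day42 and did not pass in either fit (edgeR adjusted p = 0.579 and 0.0813). Of 14 tested serotonin neuron transcription factors, 3 were higher, FEV and GATA3 among them, and 2 lower, with a median log2 fold change of -0.75, against -0.43 for all tested genes. Without Day42 replicate 3 the counts were 5 and 3 of 16, and without Day21 replicate 1, 2 and 3 they were 2 and 2, 2 and 0, and 2 and 0.

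Of 15 tested genes for serotonin synthesis, transport and breakdown, 6 were higher and 1 lower, with a median log2 fold change of 1.38. Without Day42 replicate 3 the counts were 7 and 1, and without Day21 replicate 1, 2 and 3 they were 3, 2 and 2 higher and 0 lower. DDC, the decarboxylase that completes serotonin synthesis, rose from 6.17, 6.9 and 7.21 CPM to 445, 299 and 343 CPM, by 5.74 ± 0.27 on the log2 scale (edgeR adjusted p = 0.00119), and by 5.76 without Day42 replicate 3. MAOB, a mitochondrial enzyme that oxidises amines, rose from 0.0947, 0.159 and 0.0986 CPM to 148, 142 and 199 CPM, by a fitted 10.42 ± 0.47 (edgeR adjusted p = 0.00119), and by 10.23 without it. Its Day21 values were also below the detection limit, and the log2 ratio with Day21 set at that limit was 9.52. The other monoamine oxidase, MAOA, was at 1.7, 0.595 and 1.03 CPM on Day21 and at 0, 0.0518 and 0 CPM on Day42, and missed the threshold in both fits (edgeR adjusted p = 0.063 and 0.055). The 3 Day42 values of MAOA were below the detection limit of those libraries (0.154 to 0.168 CPM).

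SLC18A2, the vesicular monoamine transporter, split the Day42 libraries. It stood at 106 and 122 CPM in replicates 1 and 2 but at 0.834 CPM in replicate 3, against 0.0316 to 0.158 CPM on Day21. Its fitted log2 fold change was 9.72 ± 2.09 (edgeR adjusted p = 0.0199), and 10.30 without replicate 3 (0.00232), against 8.43 with the Day21 values, all below the detection limit, set at that limit. GCH1, which makes the cofactor of tryptophan hydroxylase, was also low there, at 66.9, 57.3 and 9.5 CPM, with a log2 fold change of 4.51 ± 0.89 (4.96 without replicate 3). Both calls were lost with any 1 Day21 library left out, at edgeR adjusted p values of 0.0782 to 0.0951 for SLC18A2 and 0.0734 to 0.085 for GCH1. The plasma-membrane serotonin transporter SLC6A4 had a count of 0 in all 3 Day42 libraries and 0.197 CPM in 1 Day21 library, and the autoreceptor HTR1A had a count of 0 in all 6, so neither was tested or detectable at this depth. Only 3 of 14 serotonin receptors were tested, and 1 was lower: HTR3A, an ion-channel receptor, was at 2.22 to 3.58 CPM on Day21 and at 0 on Day42, at least 18.6-fold lower, also without Day42 replicate 3 but not with any 1 Day21 library left out (edgeR adjusted p = 0.0721 to 0.0869).

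**Figure D3:**
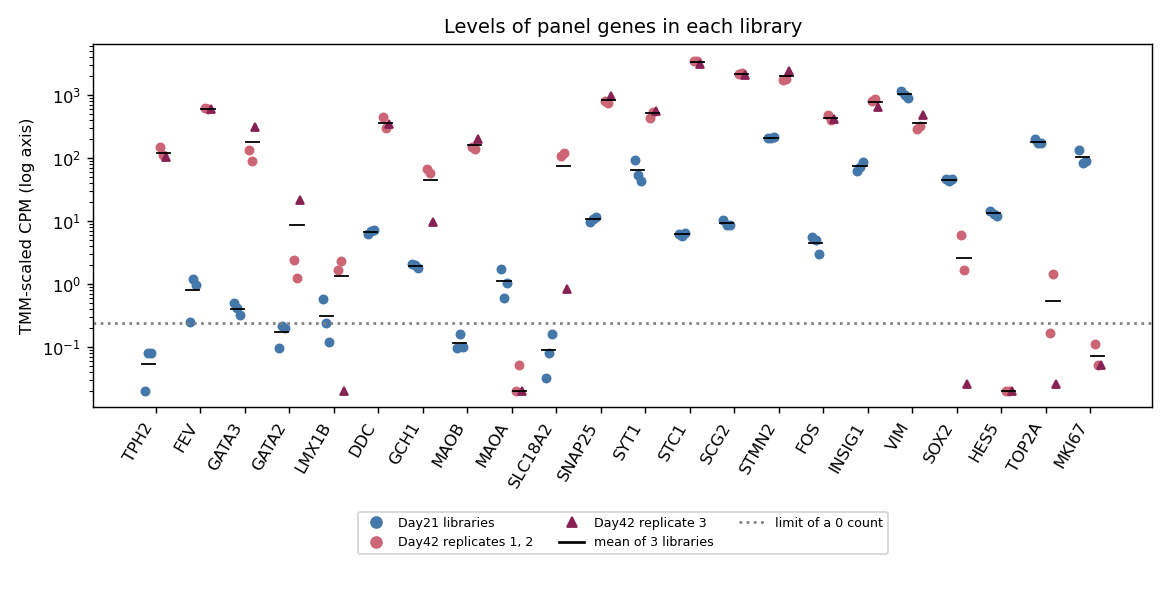
Each point is the TMM-scaled CPM (log axis) of a gene in 1 library, bars are means of 3 libraries, the dotted line is the highest per-library limit of a 0 count, and counts of 0 are drawn at the lower edge. SLC18A2 and GCH1 show Day42 replicate 3 (triangle) below the other Day42 libraries, while TPH2, FEV, STC1 and SNAP25 show the 3 libraries together.

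STC1, SCG2 and PCSK1, which take part in regulated secretion or are secreted, rose with little spread between libraries. STC1, which encodes the secreted glycoprotein stanniocalcin, rose from 6.33, 5.79 and 6.47 CPM to 3481, 3564 and 3124 CPM. The 3 Day42 libraries agreed closely, and the log2 fold change was 9.10 ± 0.18 (edgeR adjusted p = 6.42e-05), or 9.13 without Day42 replicate 3 (0.00103). SCG2, a granin of dense-core vesicles, rose from 10.5, 8.59 and 8.65 CPM to 2201, 2294 and 2116 CPM, by 7.90 ± 0.19, and by 7.90 without it. PCSK1, a prohormone convertase, rose from 1.07, 1.23 and 2.01 CPM to 591, 593 and 517 CPM, by 8.62 ± 0.38, and by 8.66 without it. In FPKM, SCG2 (882 ± 69.7, SD, n = 3) and STC1 (847 ± 88.4) exceeded FEV on Day42.

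Of 11 tested granins and prohormone-processing genes, 9 were higher and 0 lower, with a median log2 fold change of 2.63. The counts were 10 of 12 higher and 1 lower without Day42 replicate 3, and 8, 3 and 5 higher without Day21 replicate 1, 2 and 3. CHGB, another granin, rose by 5.88 ± 0.30 (5.89 without Day42 replicate 3). CHGA was at 15.2, 14.3 and 8.5 CPM on Day42 and missed the threshold with all 6 libraries (edgeR adjusted p = 0.0678). Among the fits with 1 library left out, CHGA passed only without Day42 replicate 3 (edgeR adjusted p = 0.012). Of all 15 alternatives, 6 called CHGA. Among 19 tested neuropeptides and peptide hormones, 6 were higher (31.6%) and 4 lower (21.1%). Without Day42 replicate 3 each count was 6 of 21 (28.6%), and without Day21 replicate 1, 2 and 3 the counts were 4 and 3, 2 and 0, and 3 and 0. The lower share was near that of all tested genes (16.2%, or 24.5% without Day42 replicate 3). UTS2, the urotensin peptide, rose from 0, 0.0794 and 0.335 CPM to 129, 157 and 160 CPM, by 10.07 ± 1.56 (10.03 without Day42 replicate 3), a call lost without Day21 replicate 2 (edgeR adjusted p = 0.0574). SST, the somatostatin gene, went the other way, from 90.3, 125 and 131 CPM to 0.0699, 0 and 0 CPM, all below the detection limit, with its call lost without Day21 replicate 2 (edgeR adjusted p = 0.0539) or 3 (0.0555).

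Of 30 tested synaptic vesicle and exocytosis genes, 16 were higher and 0 lower, with a median log2 fold change of 2.42; without Day42 replicate 3 the count was 23, and without Day21 replicate 1, 2 and 3 it was 9, 4 and 6. SNAP25, a SNARE protein of vesicle fusion, stood at 9.79, 11 and 11.7 CPM on Day21 and at 821, 761 and 958 CPM on Day42. The days lay far apart, with a log2 fold change of 6.29 ± 0.21 (edgeR adjusted p = 0.000545), and 6.17 without Day42 replicate 3. RAB3B, a vesicle GTPase, rose from 9.07 to 9.47 CPM up to 212, 156 and 267 CPM, by 4.52 ± 0.31 (4.29 without Day42 replicate 3). SYT1, the calcium sensor of release, rose by 3.01 ± 0.35 (2.91), a call lost without Day21 replicate 2 (edgeR adjusted p = 0.0539). SYT4, a related synaptotagmin, was at 188 and 147 CPM in Day42 replicates 1 and 2 but had a count of 0 in replicate 3, and was called only without it (edgeR adjusted p = 0.598 with it, 0.0032 without).

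Of 23 tested cytoskeletal genes of neurons, 11 were higher and 1 lower, with a median log2 fold change of 1.57; the counts were 12 and 1 without Day42 replicate 3, and 9, 8 and 8 higher without Day21 replicate 1, 2 and 3, with 1, 0 and 0 lower. STMN2, a tubulin-binding protein of growth cones, was already at 209, 211 and 213 CPM on Day21 and reached 1740, 1833 and 2406 CPM, a log2 fold change of 3.24 ± 0.18 (3.06 without Day42 replicate 3). STMN4 rose by 4.21 ± 0.30 (4.23), and DCX, the microtubule protein of young neurons, by 4.04 ± 0.25 (3.93). MLLT11 and YWHAH, a 14-3-3 protein, were among the 10 most abundant genes of Day42 by FPKM: MLLT11 rose from 1166, 1551 and 1647 CPM to 6628, 6235 and 6621 CPM, by 2.16 ± 0.17 (2.12). Of 15 RNA-binding and splicing genes of neurons, 6 were higher and 0 lower (8 and 1 of 16 without Day42 replicate 3; 4, 0 and 0 higher without Day21 replicate 1, 2 and 3).

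Among 18 tested potassium channels, 6 were higher (33.3%) and 2 lower (11.1%, below the 16.2% of all tested genes). The counts were 7 and 3 of 22 (31.8% and 13.6%) without Day42 replicate 3 (3 and 1, 2 and 0, and 2 and 0 without Day21 replicate 1, 2 and 3). KCNJ6, an inward rectifier opened by G proteins, rose from 3.05, 2.94 and 2.9 CPM to 93.2, 175 and 193 CPM, by 5.70 ± 0.42 (5.47 without Day42 replicate 3), and KCNK3, a leak channel, by 5.58 ± 0.50 (5.55). Among 18 sodium, calcium and HCN channels, 4 were higher (22.2%) and 1 lower (5.56%) (8 and 3 of 22 without Day42 replicate 3; 2 and 2, 1 and 0, and 1 and 0 without Day21 replicate 1, 2 and 3). SCN9A, a voltage-gated sodium channel, rose from 2.49, 1.07 and 1.04 CPM to 89, 146 and 123 CPM, by 6.27 ± 0.58 (6.22 without Day42 replicate 3).

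Calls among transmitter receptors changed with the libraries used, as did those among all tested genes. Of 21 tested glutamate, GABA and glycine receptor subunits, 7 were higher (33.3%) and 1 lower, against 15 (62.5%) and 1 of 24 without Day42 replicate 3. The higher share of all tested genes also rose without that library, from 5.81% to 11.8%. Without Day21 replicate 1, 2 and 3 the list held 4, 1 and 1 higher and 0 lower. In Day42 replicate 3, 18 of the list's 31 members had a count of 0, against 8 and 9 in Day42 replicates 1 and 2. In the list of glutamatergic neuron markers, SLC17A8, the vesicular glutamate transporter also known as VGLUT3, rose from 0, 0.0595 and 0 CPM to 103, 140 and 52.4 CPM. The Day21 values were below the detection limit, and the fitted log2 fold change was 12.21 ± 1.56 (12.52 without Day42 replicate 3), against 8.80 with Day21 set at that limit, with the call lost without Day21 replicate 3 (edgeR adjusted p = 0.0555). SLC17A6, another vesicular glutamate transporter, was at 0.808 to 1.7 CPM on Day21 and at 0 on Day42, at least 7.26-fold lower, and its call was lost with any 1 Day21 library left out (edgeR adjusted p = 0.0505 to 0.0681). None of the 5 tested GABAergic and glycinergic, 5 catecholamine, or 7 cholinergic and motor neuron markers was higher by edgeR with all 6 libraries, and 1 of the 7 catecholamine markers tested without Day42 replicate 3 was. In these lists 1, 2 and 3 markers were lower with all 6 libraries. With 5.81% of all tested genes higher, 0 in lists this small does not set them apart. The catecholamine list summed to 5.32 to 8.07 CPM on Day21 and to 26, 32.4 and 0.0514 CPM on Day42. The cholinergic and motor neuron list summed to 8.4 to 11.7 CPM and to 15, 27.1 and 6.21 CPM. For the GABAergic and glycinergic list the sums were 9.7 to 12.7 CPM and 6.78, 11.8 and 0 CPM.

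MKI67, a marker of cycling cells, stood at 137, 84.7 and 91.2 CPM on Day21 and at 0.112, 0.0518 and 0.0513 CPM on Day42. All Day42 values were below the detection limit, and the fitted log2 fold change was -10.47 ± 0.65 (edgeR adjusted p = 0.0018), and -10.31 without Day42 replicate 3 (0.00232), against -9.36 with Day42 set at that limit. PBK, a mitotic kinase, stood at 121, 117 and 121 CPM on Day21 and at 0 in all Day42 libraries, at least 752-fold lower. CHAF1A, a subunit of the chromatin assembly factor, was at least 601-fold lower, and SPC25, a kinetochore protein, at least 540-fold. These 4 genes kept their calls with any 1 library left out.

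Of 32 mitosis and spindle checkpoint genes, 23 were lower and 0 higher, with a median log2 fold change of -7.65 when members at 0 are set at their bound. The count was 28 without Day42 replicate 3 and 11, 6 and 6 without Day21 replicate 1, 2 and 3. The list summed to 4258 to 4689 CPM on Day21 and to 330 to 484 CPM on Day42, and all 3 Day42 libraries lay below all Day21 libraries. Of 37 DNA replication genes, 13 were lower and 0 higher (28 without Day42 replicate 3; 7, 2 and 2 without Day21 replicate 1, 2 and 3), with sums of 3627 to 3683 CPM on Day21 and 362 to 421 CPM on Day42. H4C3, a histone gene, fell from 4935, 5284 and 5279 CPM to 321, 199 and 340 CPM, a log2 fold change of -4.17 ± 0.25 (-4.33 without Day42 replicate 3). Of 21 tested inhibitors of cyclin-dependent kinases and p53 targets, 3 were higher (14.3%) and 2 lower (9.52%), with a median log2 fold change of -0.60 (3 and 5 without Day42 replicate 3, and 1 and 0 without Day21 replicate 1, 2 or 3). CDKN2D, an inhibitor of cyclin-dependent kinases, rose from 25.7, 32.3 and 41.9 CPM to 255, 244 and 322 CPM, by 3.04 ± 0.28, and by 2.88 without Day42 replicate 3.

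Part of the progenitor genes were lower. Of 26 neural progenitor and radial glia genes, 9 were lower and 0 higher, with a median log2 fold change of -4.52. The counts were 14 and 1 without Day42 replicate 3, 3, 1 and 2 lower without Day21 replicate 1, 2 and 3, and 8 and 1 when libraries were scaled by their totals alone. VIM, an intermediate filament, fell from 1186, 1009 and 900 CPM to 293, 321 and 487 CPM, a log2 fold change of -1.49 ± 0.25 (-1.77 without Day42 replicate 3), with the call lost without Day21 replicate 2 or 3 (edgeR adjusted p = 0.0539 and 0.0535). HES5, a Notch target, was at 14.6, 13.2 and 12.1 CPM on Day21 and at 0 on Day42, at least 83.6-fold lower, a call lost with any 1 Day21 library left out (edgeR adjusted p = 0.0614 to 0.0694). SOX2, a factor of neural stem cells, was at 46.2, 43.4 and 47 CPM on Day21 and at 6.05, 1.69 and 0.0257 CPM on Day42. The days did not overlap, but the Day42 libraries spread far, and SOX2 missed the threshold with all 6 libraries (edgeR adjusted p = 0.14). Among the fits with 1 library left out, it passed only without Day42 replicate 3 (edgeR adjusted p = 0.0134). Of all 15 alternatives, 4 called it.

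In the Notch pathway 5 of 22 genes (22.7%) were lower and 0 higher, and 6 (27.3%) were lower without Day42 replicate 3, shares near those of all tested genes (16.2% and 24.5%). The Notch list summed to 456 to 546 CPM on Day21 and to 291, 272 and 542 CPM on Day42, where replicate 3 lay within the Day21 range. Of 15 FGF receptors and feedback genes, 1 was higher and 1 lower, with a median log2 fold change of 0.26 (2 and 4 of 16 without Day42 replicate 3, and 1 and 0 without Day21 replicate 1, 2 or 3), and in the Hedgehog pathway 5 of 13 were lower and 0 higher (6 of 14). The Hedgehog list summed to 149 to 249 CPM on Day21 and to 66.5, 46.5 and 187 CPM on Day42, where replicate 3 again lay within the Day21 range. With any 1 Day21 library left out the Notch count was 0, and the Hedgehog count was 1, 0 and 0. GLI2, a transcription factor of Hedgehog signalling, was at 54.4, 32.2 and 21.5 CPM on Day21 and at 0 on Day42, at least 227-fold lower, a call lost without Day21 replicate 2 (edgeR adjusted p = 0.0554) or 3 (0.0555). SHH itself, the Hedgehog ligand, was at 21, 45.6 and 66.6 CPM on Day21 and at 2.6, 19.9 and 0 CPM on Day42 and did not pass in either fit (edgeR adjusted p = 0.514 and 0.171). Of 18 neuronal commitment factors, 8 were lower and 0 higher (11 and 2 without Day42 replicate 3, and 0 and 0 with any 1 Day21 library left out), among them NEUROG1 and NEUROD1, basic helix-loop-helix factors of newborn neurons. The commitment list summed to 64.8 to 80.4 CPM on Day21 and to 76.3, 73.5 and 19.5 CPM on Day42. Its sums in Day42 replicates 1 and 2 thus lay within the Day21 range. NEUROD1 was at 13.7, 13.6 and 10.3 CPM on Day21 and at 0 on Day42, at least 78.7-fold lower.

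**Figure D4:**
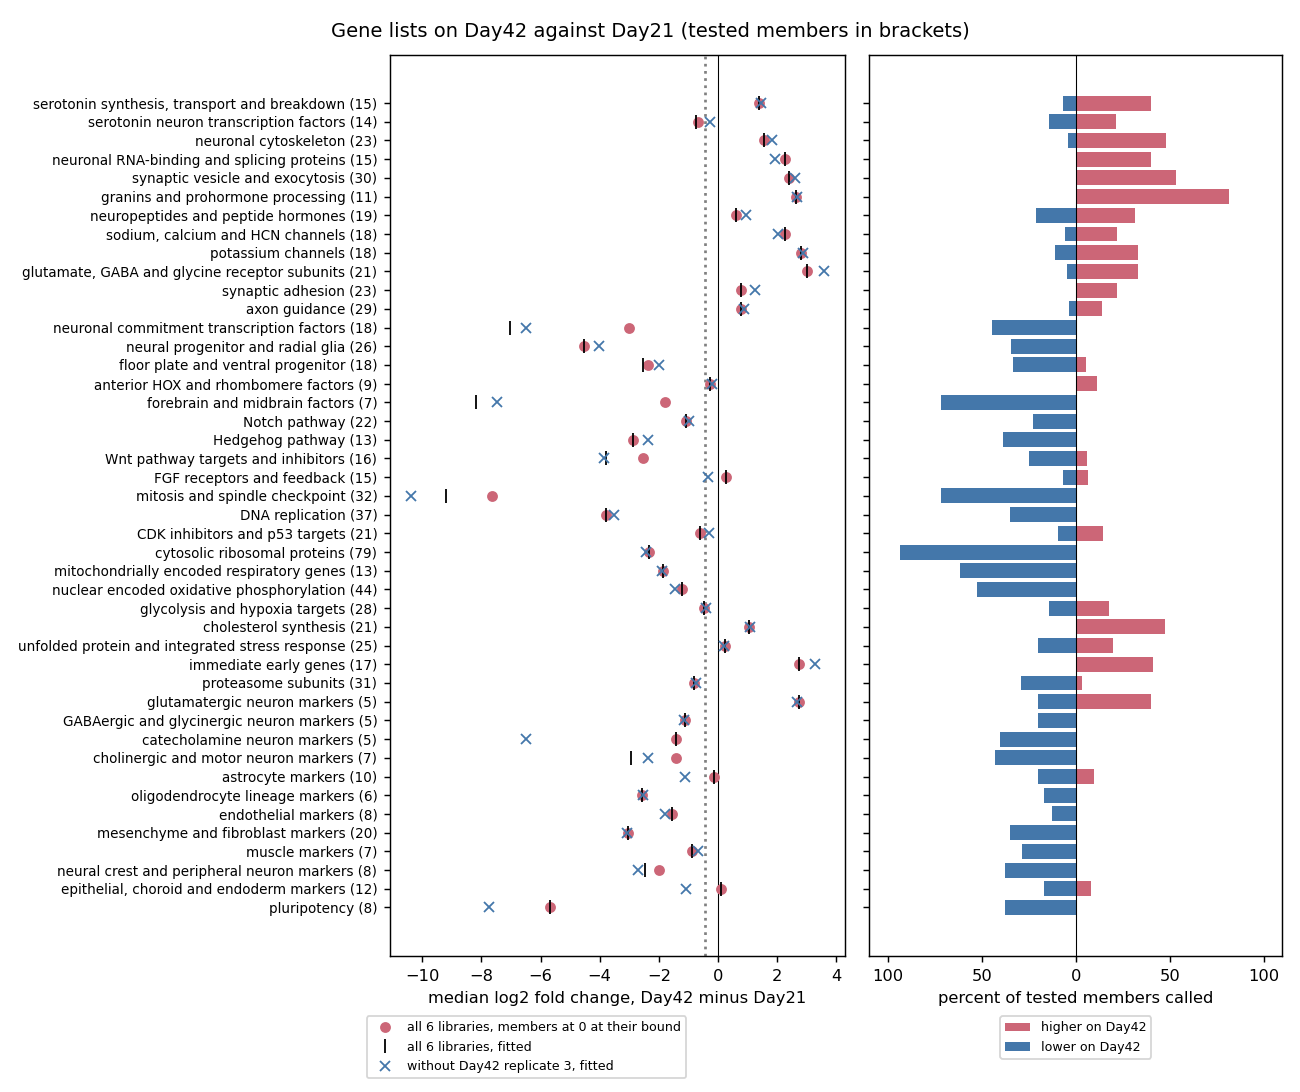
The left panel plots the median log2 fold change (Day42 minus Day21) of each list with 5 or more tested members, fitted with all 6 libraries, with members at 0 set at their bound, and without Day42 replicate 3; the dotted line is the median of all tested genes, -0.43. The right panel plots the percentage of tested members called higher or lower, from 74 of 79 ribosomal protein genes lower to 9 of 11 granins and prohormone-processing genes higher.

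Genes of translation and respiration were lower on Day42 at levels far from the limit of detection. Of 79 cytosolic ribosomal protein genes, 74 were lower and 0 higher, with a median log2 fold change of -2.34; 78 were lower without Day42 replicate 3, 73, 37 and 39 without Day21 replicate 1, 2 and 3, and 68 when libraries were scaled by their totals alone. RPS19 fell from 2313, 3547 and 3681 CPM to 270, 207 and 176 CPM, a log2 fold change of -3.87 ± 0.28 (-3.76 without Day42 replicate 3). RPL36A fell from 399, 595 and 571 CPM to 41.1, 28.3 and 21.1 CPM, a log2 fold change of -4.11 ± 0.35 (-3.93). Ribosomal protein genes have many processed copies elsewhere in the genome, and no source used here says how shared reads were counted. Genes with high levels on Day21 were often called lower: of 507 genes at 100 FPKM or more on Day21, 69.6% were lower on Day42 and 1.97% higher. The 100 most abundant genes held 34.9% to 38.9% of counts on Day21 and 28.1% to 28.7% on Day42, and the part of this shift in the list counts was not tested.

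Of 13 mitochondrially encoded respiratory genes, 8 were lower and 0 higher (8 without Day42 replicate 3, and 7, 6 and 7 without Day21 replicate 1, 2 and 3). MT-CO2, a subunit of cytochrome c oxidase, fell from 35172, 55934 and 48602 CPM to 5488, 4311 and 4744 CPM, a log2 fold change of -3.26 ± 0.22 (-3.27 without Day42 replicate 3). Mitochondrial genes took 7.23% to 10.6% of counts on Day21 and 2.65% to 2.94% on Day42. Of 44 nuclear genes of oxidative phosphorylation, 23 were lower and 0 higher (25 without Day42 replicate 3, 26, 3 and 2 without Day21 replicate 1, 2 and 3, and 13 lower and 2 higher with scaling by library totals alone). FTL, the ferritin light chain, fell from 16002, 20726 and 16493 CPM to 2252, 2195 and 3252 CPM, a log2 fold change of -2.79 ± 0.22 (-3.02 without Day42 replicate 3). Its related gene FTH1 had a log2 fold change of -1.89 ± 0.29 (-2.25 without Day42 replicate 3), a call lost without Day21 replicate 2 or 3 (edgeR adjusted p = 0.0533 and 0.0516).

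Cholesterol synthesis ran against these lists. Of 21 tested genes, 10 were higher and 0 lower, with a median log2 fold change of 1.04 (11 and 2 without Day42 replicate 3, and 6 and 1, 5 and 0, and 5 and 0 without Day21 replicate 1, 2 and 3). INSIG1, the endoplasmic reticulum protein that restrains the pathway, rose from 63.1, 73.4 and 87.3 CPM to 799, 877 and 657 CPM, by 3.38 ± 0.22 (edgeR adjusted p = 0.00209), and by 3.47 without Day42 replicate 3. CYP51A1, an enzyme of the later steps, rose by 2.90 ± 0.21 (2.85) and MSMO1 by 2.87 ± 0.14 (2.83). The list's summed level was 3342 to 3832 CPM on Day21 and 9201 to 9319 CPM on Day42, with replicate 3 among its like.

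Of 17 tested immediate early genes, which are induced within minutes of a stimulus, 7 were higher and 0 lower, with a median log2 fold change of 2.73; without Day42 replicate 3 the count was 15 of 19, and without Day21 replicate 1, 2 and 3 it was 5, 2 and 2. FOS rose from 5.64, 5 and 3 CPM to 479, 397 and 425 CPM, by 6.58 ± 0.35, and by 6.56 without Day42 replicate 3. EGR1 rose from 5.79, 2.26 and 2.42 CPM to 177, 241 and 222 CPM, by 5.93 ± 0.53 (5.88 without Day42 replicate 3). The list summed to 203 to 222 CPM on Day21 and 1602 to 1714 CPM on Day42. HSPA6, an inducible heat shock gene, rose from 0, 0 and 0.0986 CPM to 51, 14.9 and 26 CPM, a call lost with any 1 Day21 library left out (edgeR adjusted p = 0.0555 to 0.0749).

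Of 20 tested mesenchyme and fibroblast markers, 7 were lower and 0 higher (11 without Day42 replicate 3, and 2 with any 1 Day21 library left out), and the list summed to 1658 to 1825 CPM on Day21 and 256 to 307 CPM on Day42. BGN, an extracellular matrix proteoglycan, was at 201, 123 and 89.8 CPM on Day21 and at 0 on Day42, at least 868-fold lower. Astrocyte markers summed to 89.4 to 105 CPM on Day21 and to 86.6, 48.9 and 75 CPM on Day42, with 6, 5 and 7 of 12 at 0 in the Day42 libraries. Of 10 tested, 1 was higher and 2 lower (1 and 3 without Day42 replicate 3). The higher one, SLC1A2, a glutamate transporter, rose from 0.651 to 1.47 CPM up to 18 to 24.5 CPM, by 4.40 ± 0.77 (4.26 without Day42 replicate 3), a call lost with any 1 Day21 library left out (edgeR adjusted p = 0.0574 to 0.0661). Microglia and blood markers summed to 1.15 to 1.83 CPM on Day21 and 3.7 to 4.43 CPM on Day42, with 0 of 4 tested called (1 of 5 higher without Day42 replicate 3). Endothelial markers summed to 31.2 to 35.9 CPM and 0.909 to 5.91 CPM, with 1 of 8 lower and 0 higher. Epithelial, choroid and endoderm markers summed to 100 to 102 CPM on Day21 and to 169, 169 and 258 CPM on Day42. Of 12 tested, 1 was higher and 2 lower (2 and 4). The higher one, EPCAM, an epithelial adhesion molecule, rose from 1.96 to 2.44 CPM up to 22.9 to 51.8 CPM, by 4.04 ± 0.62 (3.65 without Day42 replicate 3), a call lost without Day21 replicate 2 or 3 (edgeR adjusted p = 0.0597 and 0.0555). Their part in the results above was not tested. In bulk RNA, fewer cells of a type and less RNA per cell cannot be told apart.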

How the data were processed

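Total RNA was extracted with Trizol and libraries were made with a NEBNext low-input kit, per the labels' protocols. Cutadapt 1.9, FastQC and GRCh38 are listed in the submitters' processing notes, and no source used here gives the aligner, counter, strand setting or annotation. The authors deposited a raw count and an FPKM value per gene and library. Of 34961 gene identifiers, 33890 (96.9%) were in GENCODE release 29, and 1942 symbols stood for more than 1 identifier. Where strand is not known, reads of genes overlapping on opposite strands, such as FEV and SNAP25 with their neighbours, cannot be told apart.

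Genes were kept by filterByExpr in the 6 libraries, scaled by TMM and fitted with edgeR 4.0.16 (R 4.3.3) with 1 mean per day. The SE is the absolute log2 fold change divided by the square root of F. CPM uses TMM-scaled totals. Counts pile up at multiples of 4, so a count of 0 was given a limit of 3 such steps, 12 counts, which covers counting error only. Alternatives used DESeq2 1.42.0, limma 3.58.1 on log2(FPKM + 1) and voom, other filters and scalings, all 9 libraries and each library left out. Genes named are a panel of serotonin, neuronal and progenitor genes, the 10 called genes with the largest change in each direction (mean FPKM of at least 10, libraries not overlapping, called without Day42 replicate 3), up to 4 members per list, the 5 genes most and least abundant in Day42 replicate 3 against the other Day42 libraries, and the 10 most abundant genes of each day; the text gives those the results turn on. Some results that touch withheld genes are not reported here. The comparison, the 46 gene lists and the panel were chosen with earlier results of these data known.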

Additional observations from a re-analysis of the deposited data

How the results depend on the processing

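Against 1030 higher and 2878 lower genes, the counts were 1912 and 3929 with DESeq2 (1338 genes without an adjusted p), 1315 and 3980 with all 9 libraries, 1926 and 1518 with limma on FPKM, 661 and 2415 with no filter, 1007 and 1896 with a stricter filter, 1414 and 3944 with voom and sample weights, 1588 and 2583 with library totals alone, and 1037 and 2894 with median-of-ratios scaling. Leaving out 1 library gave 135 to 2306 higher and 173 to 4845 lower genes. With a replicate block the counts were 131 and 168. Deviations of same-numbered libraries correlated at 0.00863, -0.0428 and 0.031, and not every library correlated best with its own number. These values show no pairing by number. With so wide a spread on Day42 they could not exclude one, so whether the libraries are paired is not known. Of 170 named genes called, 45 were called under all 15 alternatives, 118 were not called with the block, and 0 changed direction or were lost without Day42 replicate 3. The last count was fixed in part, since genes named for the largest change had to be called without that library. 8 named genes, none of them called, changed direction. With the replicate block the log2 fold changes were -0.09 for HSDL1, -0.49 for ARCN1, -0.09 for MFSD14A, -8.35 for AC099522 (ENSG00000272525) and -0.79 for ADPRM. With voom weights they were 0.54 for PTPRC, -8.73 for AC099522, -4.81 for ADPRM, -4.54 for AC133555 (ENSG00000288632) and -4.45 for ZSCAN32. With limma they were -0.01 for ARCN1 and -0.49 for AC099522, and the ranges with 1 library left out were -0.02 to 1.53 for MFSD14A, -11.08 to 1.76 for AC099522, -1.88 to 2.37 for ADPRM, -2.04 to 3.91 for AC133555 and -0.02 to 3.75 for ZSCAN32. The causes were not tested.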

Other observations

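Some genes differed between the Day42 libraries far more than between the days. Of 3448 genes with a mean of at least 10 FPKM on Day42, 119 were over 4-fold higher and 230 over 4-fold lower in replicate 3 than in the mean of replicates 1 and 2, while 69 differed over 4-fold between replicates 1 and 2. ARMC8 was at 123, 187 and 0.0513 CPM in Day42 replicates 1, 2 and 3, HSDL1 at 168, 115 and 0.0385 CPM, and ARCN1, a subunit of the coatomer coat of Golgi vesicles, at 145, 138 and 0.0513 CPM. On Day21 the same genes stood at 41.5 to 58.4, 40.8 to 56.3 and 60 to 66.9 CPM. ADPRM and ZSCAN32 were the reverse, at 5.19, 0 and 92.3 CPM and at 0, 12.8 and 157 CPM.

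On Day21, the long noncoding RNA MALAT1 was at 187 and 144 CPM in replicates 1 and 3 but at 32683 CPM in replicate 2, close to the 33378 to 51879 CPM of the Day42 libraries, and its edgeR adjusted p was 0.602. Without Day21 replicate 2 it was called higher on Day42 (edgeR adjusted p = 0.0128). TMSB10 and TMSB4X, thymosins that bind actin, were the most abundant genes of Day42, at 9545 ± 1083 and 9298 ± 1234 FPKM (SD, n = 3).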
